A study of Mus musculus with 9 samples.

Results

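The proteasome genes were taken as every symbol that starts with Psma, Psmb, Psmc, Psmd, Psme, Psmf or Psmg followed by a digit. The rule uses names only. It matched 50 of the 23282 symbols in the files, and 48 of the 50 were expressed highly enough to be tested. The study sequenced kidney RNA of C57BL/6 mice of 2 genotypes, labelled Bmal1 knockout (5 libraries) and wildtype (4 libraries). Bmal1, gene symbol Arntl, is the activator of the circadian clock that binds E-box DNA with Clock. All 9 libraries came from whole kidney tissue with no treatment named, and the knockout is given only as Bmal1 -/-, without the deleted exons, the hour of sampling, sex or age. Nothing in the labels says that the libraries came from separate animals, so the p-values measure the spread between libraries, which may be technical.

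The proteasome is the protease that degrades proteins tagged with ubiquitin. Its 20S core is a barrel of stacked rings: the outer alpha rings gate the entrance and the inner beta rings carry the active sites, which belong to Psmb5, Psmb6 and Psmb7. The 19S regulatory particle caps the barrel. Its base holds a ring of ATPases, encoded by Psmc genes, that unfolds the substrate and threads it into the core. Its lid removes the ubiquitin chain. Other activators, the PA28 complexes and PA200, can cap the core in place of the 19S particle. In cells exposed to interferon gamma, Psmb8, Psmb9 and Psmb10 replace the constitutive active subunits and form the immunoproteasome, which shapes peptides for antigen presentation. The transcription factor NRF1, encoded by Nfe2l1, raises transcription of proteasome genes when proteasome capacity is short, through antioxidant response elements.

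Values are log2(x + 1), where x stands for reads per gene after an adjustment by the authors to a common library size. Sequencing was 3′ tag sequencing, in which each transcript yields reads near its 3′ end, so levels are not divided by gene length. The sums of x ran between 11765219 and 13486444 per library, and the raw depth is unknown. Arntl had 5.95, 5.65, 5.99, 5.80 and 5.86 in knockouts 1 to 5, against 6.68, 6.26, 7.06 and 6.76 in wild types 1 to 4. It fell by 0.84 (SE 0.21, limma adjusted p = 0.0112), with no overlap between genotypes, although a 3′ tag outside the deleted part would not test the deletion. The filter on level cannot test the kidney label, since all 10 listed endothelial and all 7 red cell markers passed it. All 12 proximal tubule markers on the list passed too. Those markers made up 3.57 ± 0.0864% of x in knockouts and 5.33 ± 0.487% in wild types (SD, n = 5 and 4), without overlap, and 4 of 12 fell while Aqp1, Slc5a2 and Slc5a12 had positive differences. Kap alone, not called at a limma adjusted p of 0.0604, took 2.89 ± 0.107% in knockouts and 4.44 ± 0.607% in wild types. The other 11 markers took 0.678 ± 0.0837% in knockouts and 0.894 ± 0.121% in wild types, and these ranges overlapped. Endothelial markers made up 0.0630 ± 0.0104% in knockouts and 0.0424 ± 0.00521% in wild types, also without overlap, and 5 of 10 rose. At a limma adjusted p under 0.05, 8.20% of all tested genes fell and 6.16% rose. Red cell markers had a median log2 difference of 0.81 with 0 of 7 called by limma and 6 of 7 at an unadjusted p under 0.05, a level reached by 27.5% of all tested genes. The ribosomal RNA precursor Rn45s took 10.4 ± 2.92% of x in knockouts and 7.43 ± 2.71% in wild types (exact permutation p = 0.175, adjusted over 2 measures p = 0.175), and globin genes took 1.72 ± 1.08% in knockouts and 0.889 ± 0.437% in wild types (exact permutation p = 0.167, adjusted p = 0.175). The part of tissue makeup and of RNA quality in the results that follow was not tested. In bulk tissue, fewer cells of a type and less RNA per cell cannot be told apart.

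In Bmal1 knockout kidneys the proteasome genes were lower more often than higher, and most of those that fell encode the 19S regulatory particle. Of the 48 tested genes, 10 fell and 2 rose (limma, adjusted p under 0.05). Without wild type 3, 0 rose at that threshold and 2 had an unadjusted p under 0.05. Without knockout 3, 6 fell. The 10 make up 20.8% of the members, where 8.20% of all 13481 tested genes fell. The 2 that rose make up 4.17% of the members, where 6.16% of all tested genes rose. The median log2 difference over the 48 was -0.16, against 0.0002 over all tested genes, and 36 of the 48 differences were negative as deposited, or 28 to 30 under the 4 other scalings. Differences between genotypes ranged between -0.67 for Psme4 and 0.42 for Psme1. In 12 of the 48 (25%) every knockout library lay below every wild type library, as in 8.46% of all tested genes. In 2 (4.17%) every knockout library lay above every wild type library, as in 5.86% of all tested genes. The members, tested or not, without Psmc3ip and Psme2b took 0.544 ± 0.0136% of x in knockouts and 0.592 ± 0.0212% in wild types (SD, n = 5 and 4). Their ranges, 0.526% to 0.562% in knockouts and 0.571% to 0.618% in wild types, did not overlap.

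**Figure D1:**
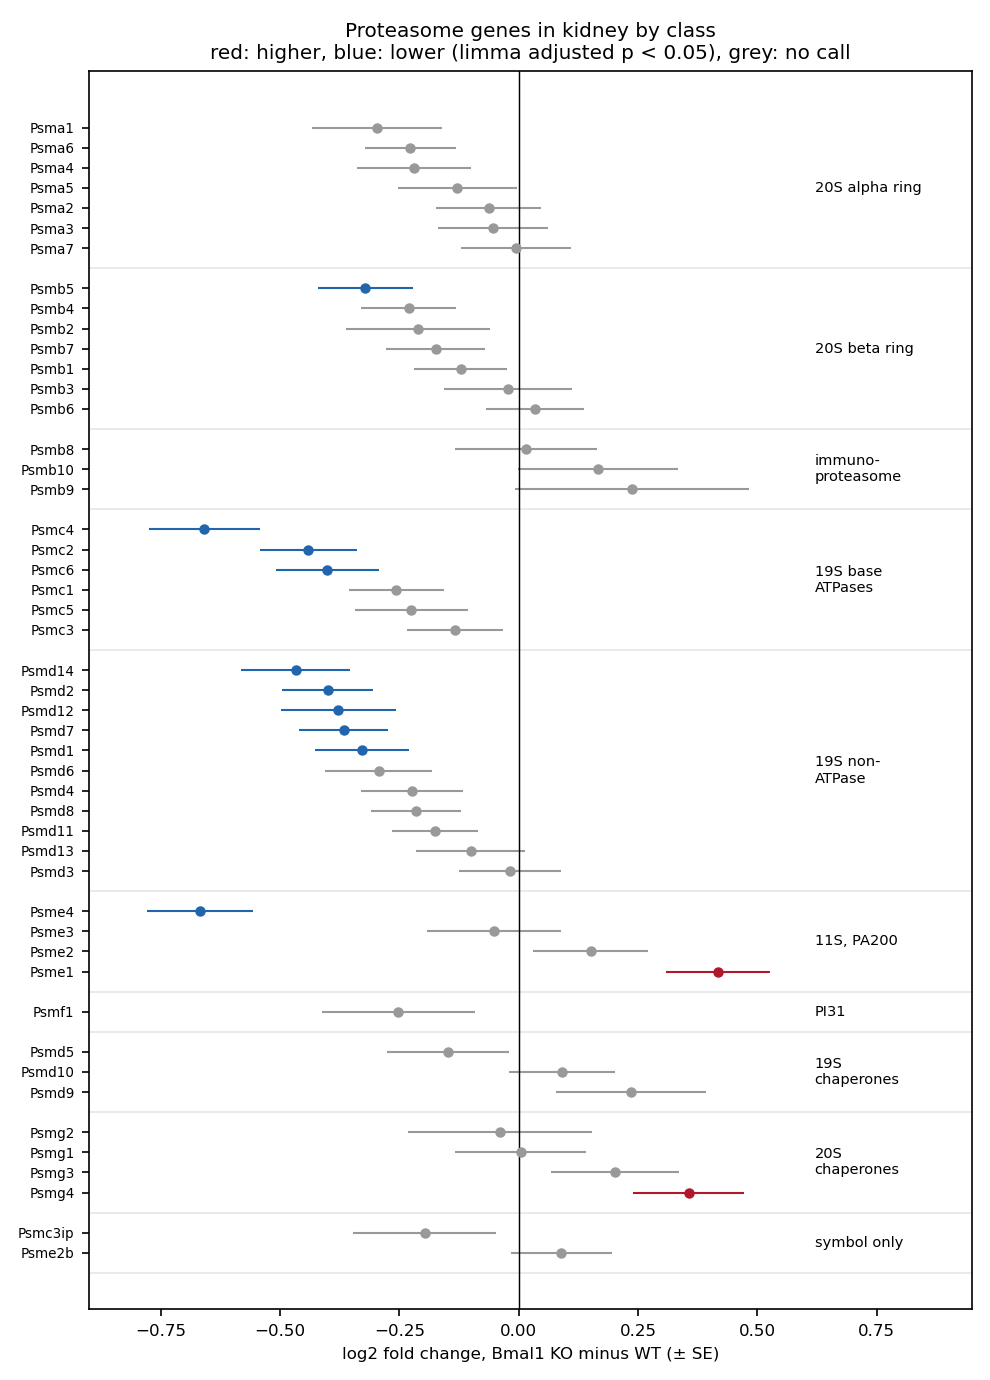
Log2 difference, Bmal1 knockout minus wild type, for the 48 tested proteasome genes grouped by role, with error bars from limma. The 17 19S subunits lie left of 0 on the deposited scale, 2 of them right of 0 under some other scalings, the 3 immunoproteasome subunits lie at or right of 0, and Psme4 and Psmc4 lie farthest left.

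Promoters of 4 of the genes that fell are shown here because each holds the core of the antioxidant response element, the sequence to which NRF1 and NRF2 bind with small Maf proteins. The letters searched, on both strands, were TGACNNNGC, whose reverse complement is GCNNNGTCA. Each sequence spans 250 bases before to 50 bases after the RefSeq gene start, in build GRCm38.p6, 5′ to 3′ on the gene's strand, with the match in capitals. The windows are chr11:30771525-30771824 (+) for Psme4, chr14:54617946-54618245 (-) for Psmb5, chr14:45329574-45329873 (+) for Psmc6 and chr11:107479278-107479577 (+) for Psmd12.
Psme4: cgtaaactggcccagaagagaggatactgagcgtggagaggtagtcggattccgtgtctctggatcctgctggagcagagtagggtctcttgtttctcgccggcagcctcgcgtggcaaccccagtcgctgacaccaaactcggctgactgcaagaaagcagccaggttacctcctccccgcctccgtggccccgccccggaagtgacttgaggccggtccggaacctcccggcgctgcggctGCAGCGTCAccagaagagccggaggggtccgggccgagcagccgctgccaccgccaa
Psmb5: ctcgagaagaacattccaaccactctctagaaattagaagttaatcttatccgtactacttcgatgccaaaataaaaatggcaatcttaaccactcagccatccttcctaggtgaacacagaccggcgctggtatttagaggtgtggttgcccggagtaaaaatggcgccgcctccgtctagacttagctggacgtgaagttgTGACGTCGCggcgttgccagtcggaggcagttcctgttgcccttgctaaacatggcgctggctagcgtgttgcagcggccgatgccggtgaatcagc
Psmc6: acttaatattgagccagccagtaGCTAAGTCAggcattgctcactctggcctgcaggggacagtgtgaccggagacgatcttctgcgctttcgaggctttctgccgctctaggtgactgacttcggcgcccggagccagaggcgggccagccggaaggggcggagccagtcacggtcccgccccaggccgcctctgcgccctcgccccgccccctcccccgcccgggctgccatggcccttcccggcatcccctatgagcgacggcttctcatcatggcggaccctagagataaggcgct
Psmd12: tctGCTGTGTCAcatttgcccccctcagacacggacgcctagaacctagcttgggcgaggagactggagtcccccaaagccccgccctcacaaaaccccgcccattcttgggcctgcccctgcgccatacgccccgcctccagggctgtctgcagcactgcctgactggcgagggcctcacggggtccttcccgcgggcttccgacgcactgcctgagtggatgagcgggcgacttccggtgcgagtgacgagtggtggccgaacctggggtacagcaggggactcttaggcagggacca
The match starts 7 bases before the gene start in Psme4 and 47 bases before it in Psmb5, and lies at the far end of the window, at -227 and -247, in Psmc6 and Psmd12.

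RefSeq windows were matched for 42 of the 50 members, 45 windows in all. The antioxidant response element core was in 6 of these 45 (13.3%), close to its share of all 32851 promoter windows (12.4%). The 6 comprised 4 of the 10 windows of genes that fell, 2 of the 32 windows of tested genes without a call, Psmb6 and Psmd9, and 0 of the 2 windows of genes that rose. The 10 windows belong to 9 of the genes that fell, since Psmd7 had no window and was not searched. The split follows the calls, which were not equally stable. With a match, Psmd12 lost its call in 16 of 21 alternatives, Psmb5 in 15, Psmc6 in 7 and Psme4 in 0. Without a match, Psmd1 lost its call in 15, Psmc2 and Psmd14 in 1 each, and Psmc4 and Psmd2 in 0. An E-box of the letters CACGTG, the element that the Bmal1 and Clock pair binds, was in 4 of 45 member windows (8.89%), against 7.15% of all windows. Those 4 belonged to Psma4, Psmb10, Psmd9 and Psme3, which were not called, and 0 of the 10 windows of genes that fell held it. The ROR half-site AGGTCA, bound by REV-ERB and ROR receptors, was in 11 of 45 (24.4%), against 16.3% of all windows, and in Psmc2, Psmc4 and Psmd2 among the genes that fell. The CCAAT box, searched as the letters CCAAT, was in 15 of 45 (33.3%), against 37.4% of all. A match describes letters in a window and was not tested for binding.

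All 6 ATPases of the 19S base had negative differences, with a median of -0.33, and 3 of the 6 fell: Psmc4, Psmc2 and Psmc6. Of all tested genes, 8.20% fell. Psmc4, the ATPase also called Rpt3, had log2 values of 9.67, 9.52, 9.33, 9.27 and 9.65 in knockouts 1 to 5, against 10.31, 10.18, 10.15 and 9.95 in wild types 1 to 4. No knockout library reached the lowest wild type, and Psmc4 fell by 36.7%, a log2 difference of -0.66 (SE 0.12, limma adjusted p = 0.000786). Psmc2, also called Rpt1, had 10.47, 10.45, 10.49, 10.19 and 10.55 in knockouts 1 to 5, against 10.87, 10.74, 10.96 and 10.91 in wild types 1 to 4. The genotypes did not overlap for Psmc2 either, with knockout 4 lowest, and it fell by 0.44 (SE 0.10, limma adjusted p = 0.00627). Psmc6, also called Rpt4, had 10.21, 10.32, 10.01, 10.17 and 10.21 in knockouts 1 to 5, against 10.65, 10.72, 10.33 and 10.64 in wild types 1 to 4. Its highest knockout, at 10.319, stood just under its lowest wild type, at 10.325, and it fell by 0.40 (SE 0.11, limma adjusted p = 0.0171). The limma adjusted p of Psmc6 was 0.0533 without knockout 3 and 0.0528 without wild type 4, and 0.0539 to 0.0695 under 5 further alternatives. The other 3 ATPases overlapped between genotypes and were not called, at -0.26 for Psmc1 (limma adjusted p = 0.0984), -0.23 for Psmc5 (limma adjusted p = 0.233) and -0.13 for Psmc3 (limma adjusted p = 0.424). Mean levels of the 6 ATPases ran between 9.31 and 11.69 on the log2 scale.

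Among the 11 other 19S subunits, all 11 differences were negative as deposited, with a median of -0.29, Psmd3 and Psmd13 changing sign under other scalings. Of the 11, 5 fell, where 8.20% of all tested genes did. Psmd2 and Psmd1, also called Rpn1 and Rpn2, are the large scaffolds of the base, and shuttle factors dock to Psmd2. Psmd2 had 10.63, 10.65, 10.60, 10.60 and 10.88 in knockouts 1 to 5, against 11.08, 11.11, 11.09 and 11.02 in wild types 1 to 4. Knockout 5 stood above the other knockouts and still below every wild type, and Psmd2 fell by 0.40 (SE 0.095, limma adjusted p = 0.00798). Psmd1 had 11.15, 10.96, 11.03, 10.85 and 10.89 in knockouts 1 to 5, against 11.43, 11.19, 11.30 and 11.30 in wild types 1 to 4. Its genotypes did not overlap, with knockout 1 nearest to the wild types, and it fell by 0.33 (SE 0.098, limma adjusted p = 0.0307). The lid carries the deubiquitinase Psmd14, also called Rpn11, which cuts the chain off the substrate. Psmd14 had 9.88, 9.54, 9.51, 9.64 and 9.58 in knockouts 1 to 5, against 10.25, 9.90, 9.99 and 10.24 in wild types 1 to 4. Knockout 1, at 9.88, lay closest to the lowest wild type, at 9.90, and Psmd14 fell by 27.7%, a log2 difference of -0.47 (SE 0.11, limma adjusted p = 0.00964). Psmd7, also called Rpn8, is the partner that holds Psmd14 in the lid, and had 10.73, 10.81, 10.78, 10.71 and 10.67 in knockouts 1 to 5, against 10.998, 11.07, 11.26 and 11.10 in wild types 1 to 4. All knockouts lay below all wild types, and Psmd7 fell by 0.37 (SE 0.093, limma adjusted p = 0.0124).

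Psmd12, also called Rpn5, is a scaffold of the lid, and had 9.74, 9.59, 9.22, 9.32 and 9.49 in knockouts 1 to 5, against 9.97, 9.70, 9.95 and 9.78 in wild types 1 to 4. Here knockout 1 stood above wild type 2, and Psmd12 fell by 0.38 with a limma adjusted p of 0.0427 (SE 0.12). The other 6 subunits were not called. Psmd8 (-0.22, limma adjusted p = 0.141) and Psmd11 (-0.18, limma adjusted p = 0.224) had every knockout below every wild type. Psmd6 stood at -0.29 (limma adjusted p = 0.0900), the ubiquitin receptor Psmd4 at -0.22 (limma adjusted p = 0.185), Psmd13 at -0.10 and Psmd3 at -0.02. In the 19S particle as a whole, 8 of 17 subunits fell (5 without knockout 3 and 5 without wild type 4) and 9 of 17 had no overlap between genotypes. Of all tested genes, 8.20% fell and 8.46% had every knockout below every wild type. The 17 differences were all negative as deposited, while Psmd3 turned positive under total and upper-quartile scaling, and both Psmd3 and Psmd13 under quantile normalization and under total scaling without Rn45s. The 19S genes took 0.228 ± 0.0109% of x in knockouts and 0.262 ± 0.00785% in wild types (SD, n = 5 and 4), and the ranges did not overlap.

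**Figure D2:**
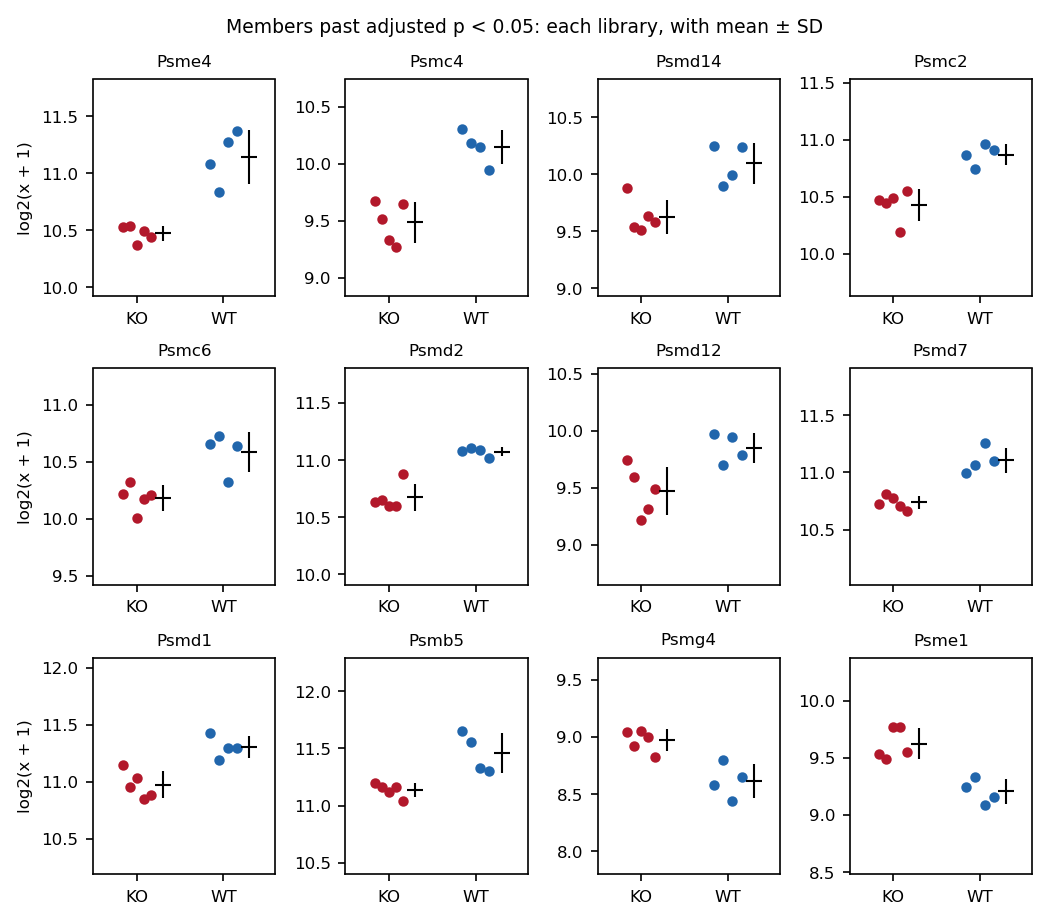
Log2(x + 1) in each library for the 12 proteasome genes that limma called, with the 5 Bmal1 knockout libraries left of the 4 wild type libraries in each panel and lines at the group means. Psmd12 is the 1 gene of the 12 in which the genotypes overlap, and Psmg4 and Psme1 are the 2 in which the knockouts lie above.

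Of the 4 tested activators, 1 fell, 1 rose and the other 2 were not called, where 8.20% of all tested genes fell and 6.16% rose. Psme4 encodes PA200, the nuclear activator linked to degradation of acetylated histones, and had 10.53, 10.54, 10.37, 10.49 and 10.44 in knockouts 1 to 5, against 11.08, 10.83, 11.27 and 11.37 in wild types 1 to 4. Its highest knockout, at 10.54, lay below its lowest wild type, at 10.83, and Psme4 fell by 37.0%, a log2 difference of -0.67 (SE 0.11, limma adjusted p = 0.000454). The knockouts spread less than the wild types (SD 0.069 in knockouts, 0.238 in wild types). Psme1 encodes the alpha subunit of PA28, an interferon-inducible ring that assembles with the beta subunit Psme2, and had 9.54, 9.49, 9.77, 9.77 and 9.55 in knockouts 1 to 5, against 9.25, 9.34, 9.08 and 9.16 in wild types 1 to 4. Every knockout lay above every wild type, and Psme1 rose by 0.42 (SE 0.11, limma adjusted p = 0.0152), an increase of 33.5%. Without wild type 3, Psme1 stood at 0.38 (limma adjusted p = 0.0506). Psme2 had 8.38, 8.41, 8.29, 8.51 and 8.30 in knockouts 1 to 5, against 8.31, 8.15, 8.11 and 8.34 in wild types 1 to 4. Its genotypes overlapped, with a difference of 0.15 (95% interval -0.10 to 0.40, limma adjusted p = 0.456). Psme3, the nuclear PA28 gamma, stood at -0.05 (limma adjusted p = 0.858). The inhibitor Psmf1, also called PI31, stood at -0.25 (limma adjusted p = 0.336).

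In the 20S core, 1 of 14 tested genes fell, Psmb5, where 8.20% of all tested genes did. In limma, 4 of 14 were lower at an unadjusted p under 0.05, a level that 27.5% of all tested genes reached in either direction. The median difference was -0.15 over these 14, of which 13 were negative as deposited. Between 8 and 10 of the 14 were negative under the 4 other scalings. In the alpha ring 0 of 7 were called by limma. Lower at an unadjusted p under 0.05 were 2 of 7, Psma1 (-0.30, limma adjusted p = 0.163) and Psma6 (-0.23, limma adjusted p = 0.130). The 27.5% of all genes counts both directions, so it is not a like share for these counts of lower genes. Psma6 had every knockout below every wild type. The median of the alpha ring was -0.13 and that of the 7 constitutive beta subunits -0.17. Psmb5, the chymotrypsin-like active subunit and the main target of bortezomib, had 11.20, 11.16, 11.12, 11.17 and 11.04 in knockouts 1 to 5, against 11.65, 11.56, 11.33 and 11.30 in wild types 1 to 4. Knockout 1, at 11.20, was the highest knockout and wild type 4, at 11.30, the lowest wild type. Psmb5 fell by 0.32 (SE 0.10, limma adjusted p = 0.0386). It was not called in 15 of 21 alternatives, among them all 4 other scalings, under which 0 of the 14 core genes fell. The difference was -0.20 under quantile normalization (limma adjusted p = 0.186). The core took 0.256 ± 0.0128% of x in knockouts and 0.270 ± 0.0185% in wild types, with overlap.

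The other catalytic subunits were not called. Psmb6, the caspase-like active subunit, had 11.03, 10.93, 10.95, 11.23 and 10.85 in knockouts 1 to 5, against 11.04, 11.10, 10.88 and 10.84 in wild types 1 to 4. Psmb7, the trypsin-like active subunit, had 11.43, 11.61, 11.56, 11.47 and 11.21 in knockouts 1 to 5, against 11.71, 11.73, 11.48 and 11.61 in wild types 1 to 4. In both genes the genotypes overlapped, with differences of 0.03 for Psmb6 (limma adjusted p = 0.873) and -0.17 for Psmb7 (limma adjusted p = 0.297). Psma8, the testis-specific alpha subunit, did not pass the filter on low values, with log2 values of 0.72 to 3.91 in knockouts and 1.56 to 3.38 in wild types.

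None of the 3 tested immunoproteasome subunits was called by limma, and none had an unadjusted p under 0.05. Psmb8, which replaces Psmb5, had 7.73, 7.99, 7.88, 8.16 and 7.66 in knockouts 1 to 5, against 7.75, 8.15, 7.69 and 7.88 in wild types 1 to 4. Psmb9, which replaces Psmb6, had 6.89, 6.32, 6.94, 7.73 and 6.601 in knockouts 1 to 5, against 6.34, 6.98, 6.48 and 6.83 in wild types 1 to 4. Psmb10, which replaces Psmb7, had 7.29, 8.04, 7.85, 8.19 and 7.96 in knockouts 1 to 5, against 7.63, 7.70, 7.68 and 7.80 in wild types 1 to 4. In all 3 the genotypes overlapped, and knockout 4 was the highest of the 9 libraries. The differences were 0.02 for Psmb8 (95% interval -0.30 to 0.33, limma adjusted p = 0.962), 0.24 for Psmb9 (95% interval -0.28 to 0.75, limma adjusted p = 0.577) and 0.17 for Psmb10 (95% interval -0.19 to 0.52, limma adjusted p = 0.567). All 3 intervals include a rise of 0.32, the size of the fall of Psmb5, and none of the 3 includes a fall of that size. Without knockout 4 the differences were -0.05 for Psmb8, 0.03 for Psmb9 and 0.08 for Psmb10. With the share of Rn45s as a covariate they were -0.19, -0.07 and -0.02 in the same order, so the direction was not settled. Psmb11, the thymoproteasome subunit of cortical thymic epithelium, did not pass the filter, at 1.31 to 4.19 in knockouts and 1.66 to 3.22 in wild types.

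Within each library, each immunoproteasome subunit was set against the constitutive subunit it replaces. Psmb8 minus Psmb5 averaged -3.25 ± 0.18 in knockouts and -3.59 ± 0.24 in wild types on the log2 scale (SD, n = 5 and 4). Psmb9 minus Psmb6 averaged -4.10 ± 0.40 in knockouts and -4.31 ± 0.31 in wild types. Psmb10 minus Psmb7 averaged -3.59 ± 0.36 in knockouts and -3.93 ± 0.15 in wild types. The knockout means were higher in all 3 pairs and the ranges overlapped in all 3, with no test made of these differences. Without knockout 4 the Psmb9 minus Psmb6 mean was -4.25 ± 0.26 in knockouts, against -4.31 ± 0.31 in wild types, and the difference of 0.20 shrank to 0.05. The difference for Psmb8 minus Psmb5 moved from 0.336 to 0.275, and that for Psmb10 minus Psmb7 from 0.34 to 0.262. Leukocytes express immunoproteasome genes, and leukocyte markers took 0.0190 ± 0.00276% of x in knockouts and 0.0190 ± 0.00198% in wild types. Of 11 tested leukocyte markers 9 had positive differences, with a median of 0.12, and 1 of these, Laptm5 (0.46, limma adjusted p = 0.0963), had an unadjusted p under 0.05. By limma 0 of 11 rose and 1 fell, the macrophage receptor Csf1r (-0.48, limma adjusted p = 0.00436).

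**Figure D3:**
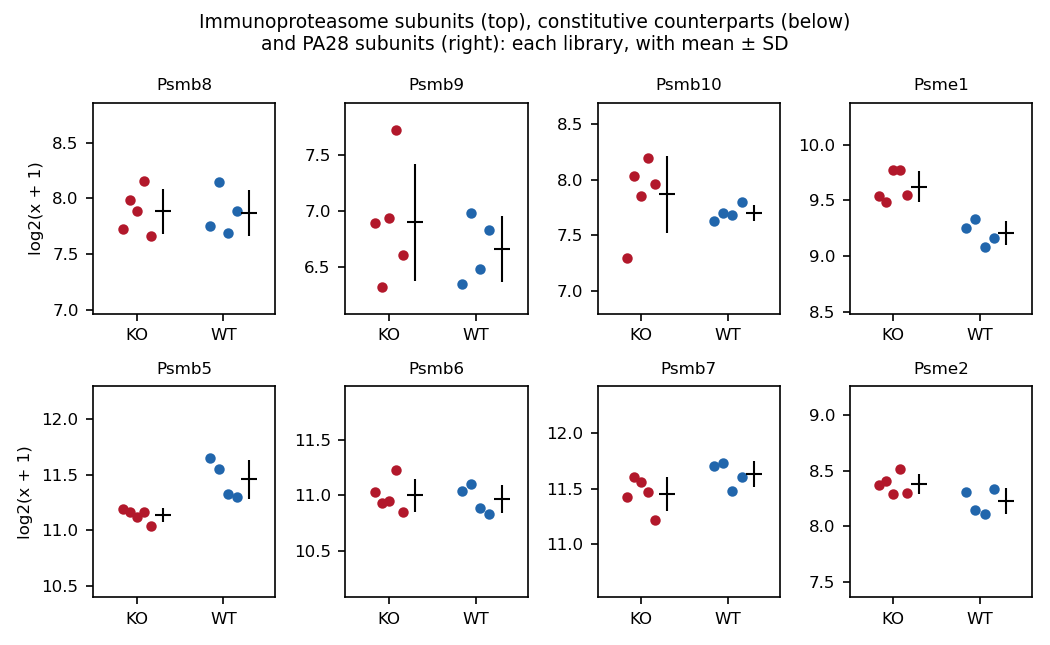
Immunoproteasome subunits and the constitutive subunits they replace, in each library, with Bmal1 knockout left of wild type and means marked. Within libraries, the immunoproteasome subunit minus its counterpart averages higher in knockouts for all 3 pairs, and the ranges overlap in all 3.

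The 7 tested assembly factors gave 1 call, a rise, where 6.16% of all tested genes rose and 8.20% fell. Psmg4, also called PAC4, works with Psmg3 in building the alpha ring, and had 9.05, 8.92, 9.05, 9.004 and 8.83 in knockouts 1 to 5, against 8.58, 8.80, 8.44 and 8.65 in wild types 1 to 4. Every knockout lay above every wild type, and Psmg4 rose by 0.36 (SE 0.12, limma adjusted p = 0.0469), the weakest of the 12 calls by its adjusted p. Its partner Psmg3 stood at 0.20 (limma adjusted p = 0.356), and Psmg1 and Psmg2, the other chaperone pair of the alpha ring, at 0.004 and -0.04. Of the chaperones of the 19S base, 0 of 3 were called by limma or had an unadjusted p under 0.05: Psmd9 stood at 0.24 (limma adjusted p = 0.364), Psmd10 at 0.09 and Psmd5 at -0.15. The symbol rule also matched Psme2b, a close copy of Psme2 (0.09, limma adjusted p = 0.632), and Psmc3ip, a recombination factor that is no proteasome subunit (-0.20, limma adjusted p = 0.435).

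Some of these values may include reads of other genes, since the counting of shared reads is not given in the sources used here. Of all sequences of 50 bases in the last 300 bases of its transcripts, 72.5% for Psmd1, 51.4% for Psmb5, 35.1% for Psmd2 and 15.7% for Psme1 also occur in another annotated gene, and the calls of these 4 are uncertain to that extent. Exons of Psmd1 also overlap Htr2b on the opposite strand and Gm21972 on the same strand. Psmb5 overlaps the microRNA gene Mir686, and 14 exon bases of Psme1 overlap Emc9. Psme2 and Psme2b share 58.8% and 68.5% of these sequences, chiefly with each other, so their values could be split by the counting. Psmc4, Psmc2, Psmc6, Psmd7, Psmd12, Psmd14, Psme4 and Psmg4 shared none of these sequences. In GRCm38, with GENCODE M21 annotation, Psme4 spans chr11:30771726-30880361 (+), Psmc4 chr7:28041707-28050101 (-), Psmd14 chr2:61711694-61800376 (+) and Psmc2 chr5:21785283-21803787 (+). Psme1, chr14:55578123-55581529 (+), and Psmb5, chr14:54614119-54618022 (-), lie on the same chromosome and were called in opposite directions.

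Genes of the pathway outside the symbol rule were described from lists chosen with earlier results in view. Of 11 tested cofactors and further subunits, 10 had negative differences (median -0.22), 2 fell and 0 rose. Of all tested genes, 8.20% fell and 6.16% rose. Adrm1, the ubiquitin receptor of the 19S base also called Rpn13, had 9.21, 9.18, 9.28, 9.19 and 9.61 in knockouts 1 to 5, against 9.86, 9.74, 9.78 and 9.61 in wild types 1 to 4. Knockout 5, at 9.612, stood just below wild type 4, at 9.614, and Adrm1 fell by 0.45 (SE 0.11, limma adjusted p = 0.0123). Txnl1, a thioredoxin-like protein bound to the 19S particle, fell by 0.35 (SE 0.10, limma adjusted p = 0.0255), with an adjusted p of 0.0515 to 0.0758 when knockout 3, wild type 1 or wild type 4 was left out of the limma fit. Pomp, the maturation factor of the core, stood at -0.33 (limma adjusted p = 0.0842). Of 13 tested shuttle factors and cofactors of the unfoldase VCP, all 13 were negative as deposited and 11 to 13 under the 4 other scalings (median -0.28), and 4 fell, among them Sqstm1 (-0.48, limma adjusted p = 0.00382), Rad23b (-0.46, limma adjusted p = 0.00428) and Nploc4 (-0.54, limma adjusted p = 0.00838). Sqstm1 is an autophagy receptor, Rad23b a carrier of ubiquitinated substrates and Nploc4 the cofactor through which VCP handles ubiquitin chains. Of 5 tested ubiquitin and E1 genes, 0 were called by limma and 3 had an unadjusted p under 0.05, 2 of them positive, where 27.5% of all tested genes did.

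Nfe2l1, the gene of NRF1, was among the genes that rose. It had 10.48, 10.44, 10.69, 10.67 and 10.54 in knockouts 1 to 5, against 9.77, 10.09, 10.24 and 10.24 in wild types 1 to 4. Every knockout lay above every wild type, and Nfe2l1 rose by 0.48 (SE 0.11, limma adjusted p = 0.00799). Of all tested genes, 8.20% fell. Of the 11 tested genes of the NRF1 list 3 fell, with a list median of -0.12. They include Vcp, which extracts NRF1 from the endoplasmic reticulum (-0.43, SE 0.10, limma adjusted p = 0.00823), and Mafg, a small Maf partner (-0.43, SE 0.10, limma adjusted p = 0.00843). The relative Nfe2l2, which encodes NRF2, stood at 0.21 (limma adjusted p = 0.234). NRF1 is controlled at the protein level by glycosylation, cleavage and turnover, which RNA does not measure. Of 18 tested genes of the interferon gamma programme and antigen processing, 0 were called by limma and 2 had an unadjusted p under 0.05, B2m (0.33, limma adjusted p = 0.0702) and H2-K1 (0.29, limma adjusted p = 0.0737), a smaller share than the 27.5% of all tested genes. The list median was 0.08.

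**Figure D4:**
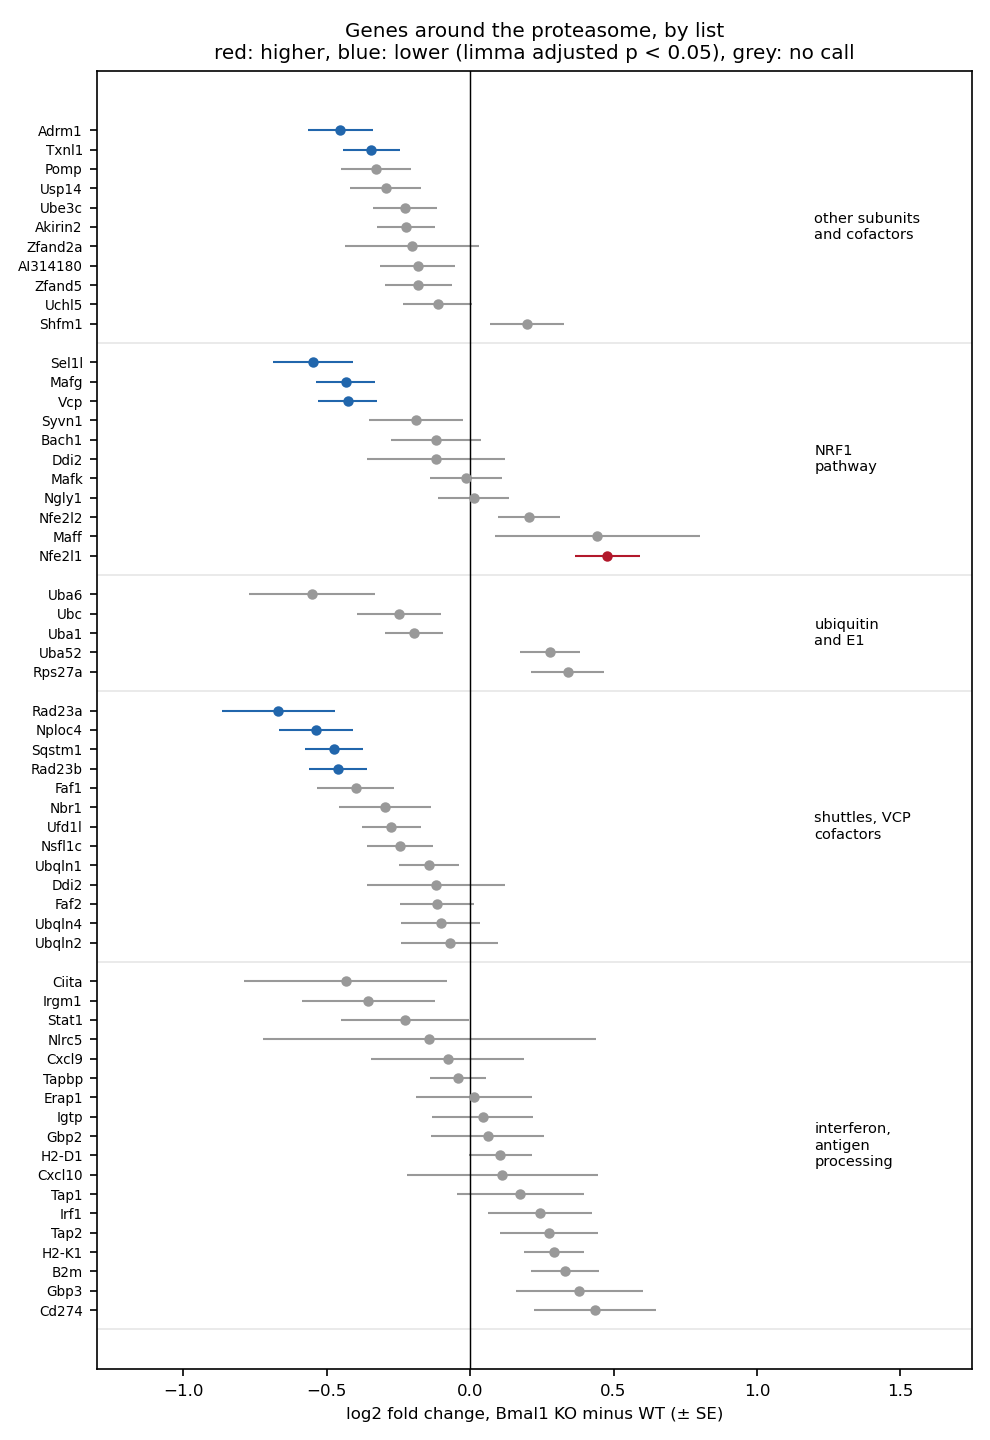
Log2 difference, Bmal1 knockout minus wild type, with error bars from limma, for pathway genes outside the symbol rule, grouped by list. The 13 shuttle factors and cofactors lie left of 0 on the deposited scale, 11 to 13 of them under other scalings, and Nfe2l1 is the 1 gene of its list that was called higher.

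**Figure D5:**
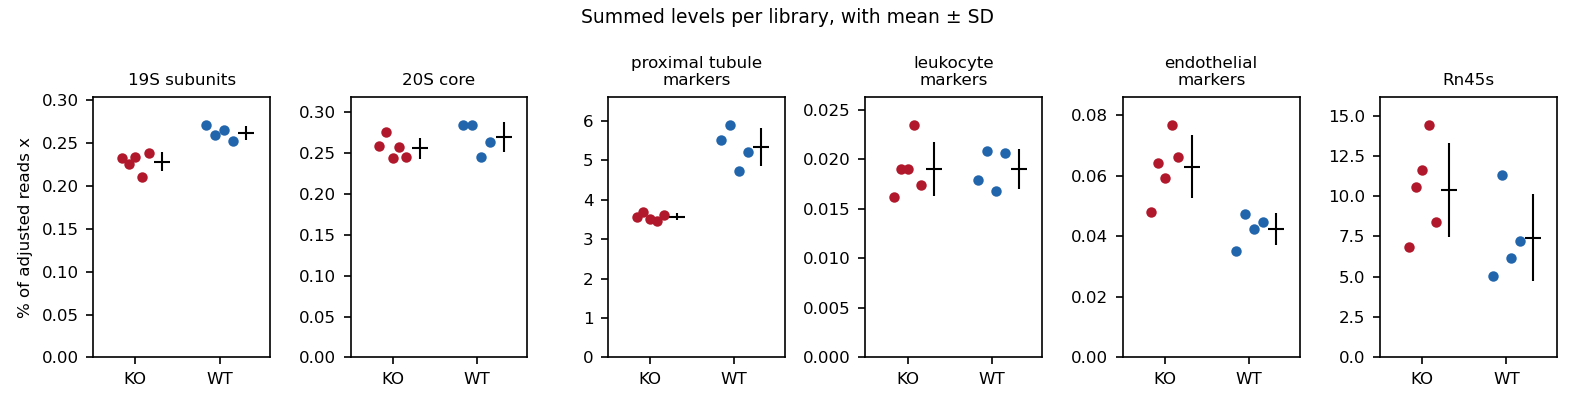
Percent of x in each library taken by proteasome genes and by the marker measures, with Bmal1 knockout left of wild type and means marked. The 19S subunits and the proximal tubule markers, most of whose share is Kap, lie lower in knockouts without overlap. The endothelial markers lie higher without overlap, and the 20S core overlaps.

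The calls differed in how far they rested on the processing. Psmc4, Psmd2 and Psme4 passed the threshold under all 21 alternatives. Psmc2 and Psmd14 missed it only with the share of Rn45s as a covariate (limma adjusted p = 0.0563 and 0.0924), as did Nfe2l1 (limma adjusted p = 0.067). Psme1 missed it with that covariate and without wild type 3. Psmd7 missed it under 3 scalings, with a limma adjusted p of 0.0542 to 0.0739. Psmc6 missed it in 7 alternatives, among them 3 scalings. Psmb5 missed it when any 1 of knockouts 2 to 5 or wild types 1 and 2 was left out (limma adjusted p = 0.065 to 0.126). Psmd1 and Psmd12 missed it when any 1 of knockouts 2 to 5 or wild types 1, 3 and 4 was left out, at 0.0516 to 0.0908 for Psmd1 and 0.0539 to 0.114 for Psmd12. Psmg4 missed it without any 1 of knockouts 1 to 4 or wild types 1, 3 and 4, at 0.0722 to 0.142. Psmb5, Psmd1 and Psmd12 also missed it under all 4 other scalings, with a constant prior variance, with the Rn45s covariate and with the replicate block. With that covariate Psmd12 stood at -0.22 (limma adjusted p = 0.319). Psmg4 kept its call under the 4 scalings and missed it with the constant prior variance, the covariate and the block, at 0.0611 to 0.214. The share of called genes that were higher, 42.9% as deposited, was 50.7% under quantile normalization, 56.8% under total scaling, 64.7% under total scaling without Rn45s and 58.1% under upper-quartile scaling. In that order, the 4 scalings gave member medians of -0.07, -0.10, -0.06 and -0.09, against -0.16 as deposited. The medians of all tested genes under them were 0.0018, 0.058, 0.105 and 0.075, against 0.0002 as deposited. Under each scaling, 4 or 5 of 17 19S subunits fell.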

How the data were processed

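RNA was extracted from kidneys of Bmal1 -/- and wildtype C57BL/6 mice, and 9 libraries for 3′ mRNA sequencing were made with the Lexogen QuantSeq kit from 500 ng each, per the labels' protocols. The deposited values are log2(x + 1) with 3 decimals, from x that the authors adjusted to a common library size, as read from the values. Bowtie2, bedtools and build mm10 are named in the submitters' processing notes. Their versions, the strand setting and the normalization tool are unknown here. The values are not counts, and raw depth is unknown.

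Genes with x of at least 10 in at least 4 libraries (13481) entered a limma fit (version 3.58.1, R 4.3.3) with genotype as the single term, a prior variance following the mean and a pseudocount of 1, with two-sided p-values adjusted by Benjamini-Hochberg over these genes at 0.05. Differences of log2(x + 1) understate changes of low genes. Shares of Rn45s and globin were tested by exact permutation, with 126 splits and a smallest p of 0.00794. A permutation planned for the members' share is not reported, since the members were chosen. The values without Kap and the paired differences without knockout 4 were added after seeing the data. The fit was tested on simulated data, where it missed part of the changed genes, more often the smaller the change. A gene without a call may therefore have changed. Alternatives changed the filter, pseudocount, scaling, variance model, weights, covariate, block and libraries used.

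Members and lists were chosen with earlier results of these data known. Library values are given for called members, for Psmb5 to Psmb10 and for Psme1 and Psme2. Up to 3 called genes of each pathway list are named, together with further uncalled genes, Csf1r and Arntl, which were chosen after their values were seen. Promoters are RefSeq windows of GRCm38.p6, and positions come from GENCODE M21.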

Additional observations from a re-analysis of the deposited data

Results flagged for a closer look

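Of 116 groups of libraries examined for a sample far from the others, 5 were flagged, and chance alone flags about 1 in 20. Psmc1 in knockout 3, at 10.76, stood above the next knockout, at 10.52. Psmd2 in knockout 5, at 10.88, stood above the next knockout, at 10.65. Psmc3ip in wild type 1, at 7.92, stood above the next wild type, at 7.49. In wild type 2, globin genes took 1.541% of x, where the next wild type had 0.731%, and red cell markers took 1.545%, where the next had 0.732%. The part of the red cell RNA in the proteasome values was not tested. Without wild type 2 and knockout 4, the libraries with the most globin of their genotype, 6 proteasome genes fell.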

How the results depend on the processing

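Every alternative kept the direction of each called member. The count of members that rose, 2, became 1 with a constant prior variance, 0 with the share of Rn45s as a covariate, 1 with the replicate block and 0 to 2 with each library left out (0 without wild type 3). It was 1 without Psmc3ip, Psme2b and the members that share exons or 3′ sequence with another gene, an alternative chosen after seeing the data. The count of members that fell, 10, became 5 under quantile normalization, 6 under total scaling, 5 under total scaling without Rn45s, 6 under upper-quartile scaling, 6 with a constant prior variance, 5 with the Rn45s covariate, 6 without wild type 2 and knockout 4, 7 with the replicate block, 6 to 10 with each library left out (6 without knockout 3) and 7 without the members that share sequence. Over all 13481 tested genes, 1106 fell as deposited and 870 under quantile normalization. The count was 756 under total scaling, 695 under total scaling without Rn45s and 811 under upper-quartile scaling. It was 734 with a constant prior variance, 643 with the Rn45s covariate and 993 with the replicate block. As deposited 831 rose, against 578, 514 and 745 in those last 3 settings. The cause was not tested. The count that fell was 9 with no filter, 9 with library weights and 10 with a pseudocount of 5 or a minimum x of 50. At an adjusted p under 0.10, 12 fell and 2 rose. Same-numbered libraries were not shown to be paired: the correlations of their deviations were 0.15, 0.001, -0.007 and 0.04, with 1 of 4 over 0.1, and 2 of 4 wild types matched their own number best. Under total scaling without Rn45s the median of all genes moved to 0.105. The number of libraries and the unknown depth limit the precision.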
